A study of Homo sapiens with 8 samples.

Results

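The comparison set LNCaP against DU145, a pair of established human prostate cancer lines. LNCaP was grown from a lymph node metastasis and is known for making prostate-specific kallikreins in response to androgen. DU145 was grown from a brain metastasis, and its cells divide without androgen. Members were chosen by their array titles: 4 LNCaP arrays and 4 DU145 arrays, together all 8 arrays of the series. In both lines, 1 array stands for each of 4 transfected constructs: a miRNA that served as negative control (nc), the microRNA miR-29b, an siRNA that served as control (siControl), and one directed at the DNA demethylation gene TET2 (siTET2). Total RNA was taken 72 hours later from cells kept in RPMI medium with 10% fetal bovine serum. No untransfected cells and no normal prostate cells were among the groups. All 8 samples share a transfection, and miR-29b and siTET2 were meant to act on genes. Each line stands for 1 tumour, so a difference between the lines is not a difference between classes of prostate cancer.

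Values are log2 expression levels after quantile normalization of all 8 arrays together, and a difference is always LNCaP minus DU145, so that 1 unit is a 2-fold difference. There was 1 array per line and construct. The error of a difference is therefore based on its spread over the 4 constructs, which may be technical in part. limma draws that spread toward a value shared by all genes, and the SE and p-values rest on the result. Where the 4 differences lie very close together, the SE comes largely from the shared value. Line and any batch in which its arrays were run cannot be told apart. In the deposited table the medians were 7.10 to 7.17 in LNCaP and 6.59 to 6.66 in DU145. Pearson correlations over all probe sets, given as a description, were 0.987 to 0.995 between arrays of a line and 0.919 to 0.928 between lines. Markers of other cells were low in both lines. Of 13 immune markers, 1 lay above the array's median on every array, and that was CD68, a lysosomal membrane protein. PTPRC, the leukocyte surface phosphatase CD45, lay no higher than percentile 4.2 of any array. Other immune markers lay higher, with CD3D at up to percentile 31.6 in LNCaP and CD8A at up to 33.4 in DU145. Of 13 fibroblast and stromal markers 1 or 2 lay above the median, and of 10 endothelial markers 0 did.

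Luminal cells of the prostate line the ducts and secrete kallikreins and acid phosphatase, a programme driven by androgen acting through a nuclear receptor together with pioneer factors such as FOXA1 and HOXB13. Basal cells lie beneath them, hold on to the basement membrane through hemidesmosomes and use integrins, laminins and CD44. Carcinoma cells may lose parts of the epithelial programme and take up vimentin, caveolin and other mesenchymal genes. GSTP1, a glutathione transferase, is widely known as a gene silenced by methylation of its promoter in prostate cancer. DNA methylation was not measured in these samples.

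The sequences below are the 250 bases before the RefSeq start of the markers KLK3, KLK2, GSTP1 and CAV1, on build GRCh38.p14. Those of the markers SLC45A3 and VIM are not printed. KLK3 and KLK2 are shown because they hold a half-site of the receptor's binding motif or a close relative of that half-site. GSTP1 and CAV1 are shown as genes at which methylation of CG pairs is often studied. Capitals mark AGAACA or its reverse complement TGTTCT in KLK3, GGAACA or its reverse complement TGTTCC in KLK2, and every CG in GSTP1 and CAV1.
KLK3, chr19:50854665-50854914, + strand: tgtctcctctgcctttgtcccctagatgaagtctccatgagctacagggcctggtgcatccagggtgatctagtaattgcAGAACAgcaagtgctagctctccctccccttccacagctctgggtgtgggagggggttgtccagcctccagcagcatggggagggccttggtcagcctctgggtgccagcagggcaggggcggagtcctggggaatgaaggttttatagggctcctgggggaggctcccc
KLK2, chr19:50873189-50873438, + strand: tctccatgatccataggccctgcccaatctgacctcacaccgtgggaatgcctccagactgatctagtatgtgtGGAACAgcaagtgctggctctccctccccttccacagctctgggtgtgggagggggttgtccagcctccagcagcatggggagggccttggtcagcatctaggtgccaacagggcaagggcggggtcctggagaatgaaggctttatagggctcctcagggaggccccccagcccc
GSTP1, chr11:67583562-67583811, + strand: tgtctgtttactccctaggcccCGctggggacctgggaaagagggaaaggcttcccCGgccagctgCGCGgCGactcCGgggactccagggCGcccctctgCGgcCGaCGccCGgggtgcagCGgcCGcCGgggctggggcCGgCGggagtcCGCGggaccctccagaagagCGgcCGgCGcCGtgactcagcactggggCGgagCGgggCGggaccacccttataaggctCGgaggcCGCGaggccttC
CAV1, chr7:116524759-116525008, + strand: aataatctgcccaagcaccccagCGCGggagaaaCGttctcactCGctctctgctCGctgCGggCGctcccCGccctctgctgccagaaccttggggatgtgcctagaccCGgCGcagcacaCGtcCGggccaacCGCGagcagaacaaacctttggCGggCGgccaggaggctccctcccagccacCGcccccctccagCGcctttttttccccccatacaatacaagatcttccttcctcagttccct
AGAACA is a 6-base half-site of the androgen response element, and not the whole element. Without gaps, the KLK3 and KLK2 windows, with the 50 bases after the start included, were 76.5% identical over 294 bases. At the place of the KLK3 half-site, which begins at position -170 from its start, KLK2 had GGAACA. The single substitution was A1G, counted from the first base of the half-site with the KLK3 base first. AGAACA on either strand stood 0 times in the KLK2 window and 1 time in the CAV1 window, where it is left in lower case above. In windows of 300 bases, SLC45A3, a marker higher in LNCaP, held 26 CG pairs and 0 AGAACA. GSTP1 held 36 CG pairs, CAV1 19, KLK2 3 and KLK3 2, where the median of 14237 genes was 23. AGAACA on either strand stood in 10.9% of those windows and GGAACA on either strand in 12.3%, so neither word is rare. The median count of CG was 21 in the windows of genes called higher in LNCaP and 26 in those of genes called higher in DU145. AGAACA was found in 10.1% of the former and 8.0% of the latter. A word found in a window describes its letters and does not show whether the receptor binds there. Binding was not measured in these samples.

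A gene was called where limma's Benjamini-Hochberg adjusted p was below 0.05 and the lines differed at least 2-fold. Of 18417 genes, 1352 (7.34%) were called higher in LNCaP and 1948 (10.6%) higher in DU145, and those shares are the background for every count below. Adjusted p alone would have called 12615 genes (68.5%), which is why a fold was also required. A difference of at least 8-fold was seen for 164 genes higher in LNCaP and 364 higher in DU145, and one of at least 32-fold for 47 and 73. For 3299 of the 3300 called genes the 4 matched differences had 1 sign. The exception, named with its value seen, was SNORD116-29, a small nucleolar RNA whose difference was -0.03 with nc and between 0.90 and 1.83 with the other constructs; its call was lost without the siControl pair (0.77) or the siTET2 pair (0.90). The balance of calls rests on the scaling: 41.0% of called genes were higher in LNCaP here, 74.2% on the deposited values, on which the median gene was 0.52 higher in LNCaP, and 33.2% after median centring. No called gene was called the other way under any of these scalings.

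**Figure D1:**
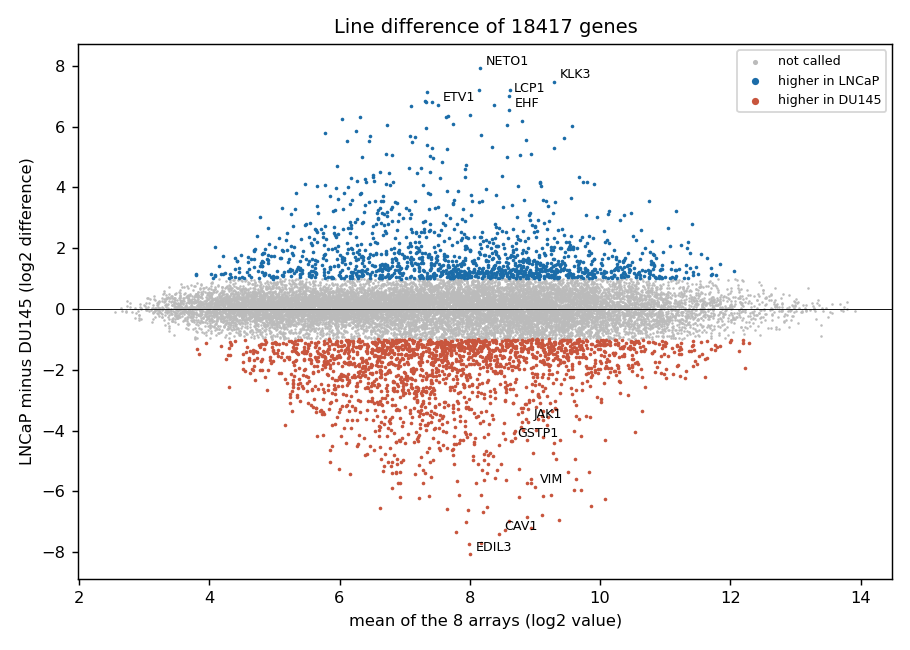
Each point is 1 of 18417 genes, with the mean log2 value of the 8 arrays on the horizontal axis and the log2 difference, LNCaP minus DU145, on the vertical axis. The 1352 blue genes were called higher in LNCaP and the 1948 red genes higher in DU145; NETO1 is the highest point and EDIL3 the lowest.

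All 6 markers followed their labels on every array. KLK3, which encodes prostate-specific antigen, read 13.04, 12.95, 13.07 and 13.06 in LNCaP with nc, miR-29b, siControl and siTET2, the order used throughout, and 5.38, 5.54, 5.77 and 5.55 in DU145. That is a log2 difference of 7.47 (SE 0.08, 4 pairs, limma adjusted p = 4.71e-10), or 177-fold. KLK3 lay above 99.7% of genes on each LNCaP array and at the 19th to 24th percentile in DU145. KLK2, a related kallikrein protease, read 10.13, 9.89, 10.09 and 10.25 in LNCaP and 5.69, 5.84, 5.68 and 5.78 in DU145, a difference of 4.34 (SE 0.09, limma adjusted p = 4.23e-09). SLC45A3, the membrane protein prostein, was 11.18, 10.69, 10.78 and 11.14 in LNCaP and 7.35 to 7.41 in DU145, a difference of 3.57 (SE 0.10, limma adjusted p = 2.47e-08). The DU145 values of SLC45A3 sat near the middle of the array, at the 47th to 48th percentile, so the gene was lower there without lying at the bottom of the scale.

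The other 3 markers stood the other way. VIM, the intermediate filament vimentin, was 6.14, 6.03, 5.93 and 6.20 in LNCaP and 11.91 to 11.95 in DU145, a difference of -5.85 (SE 0.07, limma adjusted p = 5.82e-10). GSTP1 read 6.57, 6.55, 6.24 and 6.59 in LNCaP and 10.998, 10.90, 10.71 and 10.66 in DU145, a difference of -4.33 (SE 0.09, limma adjusted p = 3.55e-09). CAV1, the coat protein of caveolae, read 4.95, 4.74, 4.71 and 4.61 in LNCaP and 12.12, 12.13, 11.96 and 12.35 in DU145, a difference of -7.39 (SE 0.10, limma adjusted p = 8.28e-10), or 167-fold. For none of the 6 did the ranges of the lines come near each other. CAV1 lay at the 10th to 13th percentile in LNCaP and VIM at the 28th to 32nd. Low array values hold a background floor, so the true ratio at such genes may be larger than the one given.

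**Figure D2:**
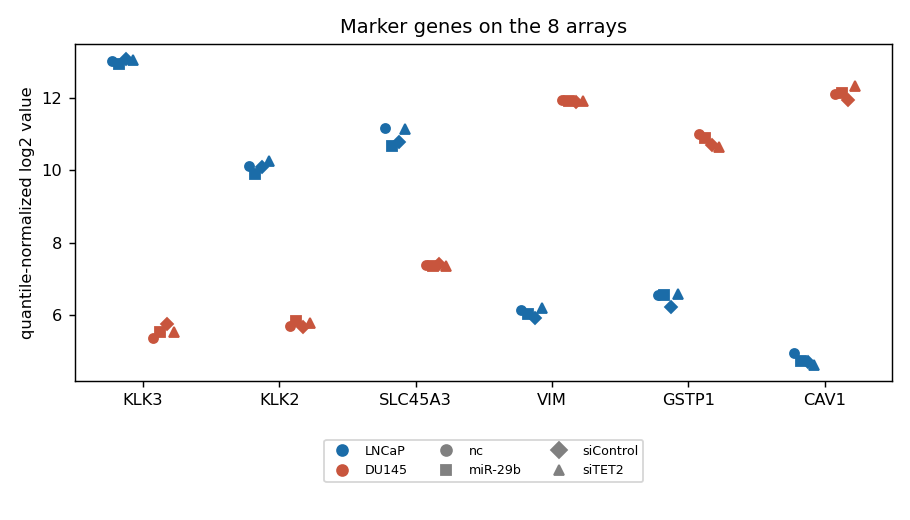
Quantile-normalized log2 values of the 6 marker genes, with 1 point per array; colour gives the line and the symbol the construct. KLK3, KLK2 and SLC45A3 are high in all 4 LNCaP arrays, and VIM, GSTP1 and CAV1 in all 4 DU145 arrays, with no overlap between lines.

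The largest difference in favour of LNCaP was that of NETO1. NETO1, an auxiliary subunit of glutamate receptors, read 12.12, 11.96, 12.09 and 12.31 in LNCaP and 4.11 to 4.30 in DU145, a difference of 7.91 (SE 0.08, limma adjusted p = 4.71e-10), or 241-fold. Next after KLK3 was TMEFF2, a transmembrane protein with follistatin domains that is known in prostate, with a difference of 7.21, and NCAM2, a neural cell adhesion molecule, differed by 7.19. LCP1, the actin-bundling protein L-plastin, differed by 7.003 and STXBP5L, a tomosyn of vesicle release, by 6.82. GUCY1A1, a subunit of soluble guanylate cyclase, differed by 6.80. MIR99AHG, the host transcript of a microRNA cluster, differed by 6.84. In all of these, the LNCaP mean was 10.7 or more and the DU145 mean 5.10 or less, which spans much of the range of an array. Across all genes, 27 lay in the top 20% of every LNCaP array and the bottom 20% of every DU145 array, and 33 the reverse.

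EDIL3, a secreted integrin-binding protein, led in DU145. It read 3.87, 3.86, 4.14 and 3.997 in LNCaP and 12.11, 12.06, 12.05 and 11.95 in DU145, a difference of -8.07 (SE 0.08, limma adjusted p = 4.71e-10), or 269-fold. PLOD2, a lysyl hydroxylase that prepares collagen for cross-linking, differed by -7.70 and DKK1, a secreted inhibitor of WNT signalling, by -7.35. GPRC5A, an orphan receptor induced by retinoic acid, differed by -6.82, MYOF, the membrane-repair protein myoferlin, by -6.78, and EFEMP1, a fibulin of the matrix, by -6.67. CNN3, an actin-binding calponin, differed by -6.58. The DU145 mean of these genes was 10.9 or more.

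Prostate secretory and luminal genes were mostly higher in LNCaP. Of 24 measured of 26 listed, 15 were called higher in LNCaP and 1 in DU145, with a median difference of 2.60 against 0.04 over all genes. ACP3, prostatic acid phosphatase, differed by 4.62 (means 9.38 and 4.76), SPON2, a secreted spondin, by 5.56 and KLK4, a further kallikrein, by 3.95. STEAP2, a metalloreductase of the prostate epithelium, was 12.8 in LNCaP and 9.55 in DU145, so that it was well above the middle of the scale in both lines. The exception was RAB3B, a GTPase of secretory vesicles (-1.25), which is named with its value seen. Of 22 promoter windows of this list 3 held AGAACA, those of KLK3, PMEPA1 and TSPAN1, and the median count of CG was 6.5.

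Transcription factors of the prostate epithelium stood in the same direction. Of 12 measured, 7 were called higher in LNCaP and 0 higher in DU145, with a median of 1.52. EHF, an epithelial ETS factor, read 11.82, 11.75, 11.99 and 11.91 in LNCaP and 5.22, 5.21, 5.41 and 5.50 in DU145, a difference of 6.53 (SE 0.07, limma adjusted p = 4.71e-10). GRHL2, a grainyhead factor that maintains epithelial junction genes, differed by 5.73 and HOXB13, the posterior homeobox factor of the prostate, by 5.002. SPDEF, an ETS factor of secretory epithelium, differed by 4.04. FOXA1, which opens chromatin for steroid receptors, differed by 1.99, with DU145 still at 9.57 to 9.84. The levels of HOXB13 in DU145, 5.76, 6.42, 6.04 and 6.09, did not approach the LNCaP values of 10.91 to 11.23.

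Of 24 genes known to be induced by androgen, 14 were called higher in LNCaP and 2 in DU145, with a median of 1.27. ADAMTS1, a secreted protease of the matrix, read 11.02, 10.69, 10.69 and 10.97 in LNCaP and 4.33 to 4.68 in DU145, a difference of 6.34 (SE 0.10, limma adjusted p = 1.11e-09). HPGD, which inactivates prostaglandins, read 9.31, 8.57, 9.38 and 9.98 in LNCaP and 3.52 to 3.74 in DU145, a difference of 5.68 (SE 0.20, limma adjusted p = 7.51e-08). Its LNCaP values spread wider than those of ADAMTS1, lowest with miR-29b and highest with siTET2. HERC3, a ubiquitin ligase, differed by 4.18, ZBTB16, a zinc finger repressor, by 3.75, and PLPP1, a lipid phosphatase, by 3.04. The pair called higher in DU145 was NNMT, a nicotinamide methyltransferase (-2.87), and FADS1, a fatty acid desaturase (-1.04). The call of FADS1, which is named with its value seen, was lost without the nc pair (-0.93) and on the deposited values (-0.87). NNMT is also named with its value seen.

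Enzymes that act on steroids were split. Of 20 measured, 6 were called higher in LNCaP and 2 in DU145. The UGT2B enzymes attach glucuronic acid to androgens and so mark them for export. UGT2B28 read 9.06, 8.77, 9.58 and 9.26 in LNCaP and 2.67 to 3.28 in DU145, a difference of 6.24 (SE 0.10, limma adjusted p = 1.59e-09), and UGT2B17 differed by 5.79 and UGT2B10 by 5.52. UGT2B4 differed by 2.04, and UGT2B7 did not pass (-0.01, limma adjusted p = 0.91). These genes are close copies of each other, and probes may read more than 1 of them. AKR1C2, a ketosteroid reductase, differed by 1.91, with matched differences from 1.07 with siTET2 to 2.63 with miR-29b. AKR1C3, which makes testosterone from androstenedione, differed by -0.91 and was not called, and AKR1C1 gave -0.17 on 1 probe set and 1.21 on another. STS, which frees steroids from sulphate, differed by 1.44. CYP1B1, an oestrogen hydroxylase, stood at -4.38 and HSD17B11, a steroid dehydrogenase, stood at -2.43. SRD5A1 (-0.35), SRD5A2 (-0.21), HSD3B1 (0.74), HSD3B2 (-0.36), HSD17B4 (0.82), HSD17B6 (0.03), CYP19A1 (0.09), SULT1E1 (-0.09) and AKR1C4 (-0.11) were not called. SRD5A2 and CYP19A1, known for dihydrotestosterone and oestrogen synthesis, were low in both lines (means 5.59 and 5.81, and 4.37 and 4.28). On the deposited values, AKR1C1 (0.30), AKR1C4 (0.63), SRD5A2 (0.51), HSD3B2 (0.45), SULT1E1 (0.43) and UGT2B7 (0.55) stood higher in LNCaP, so the direction of these genes depends on the scaling, and HSD3B1 passed the fold bound there (1.55).

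**Figure D3:**
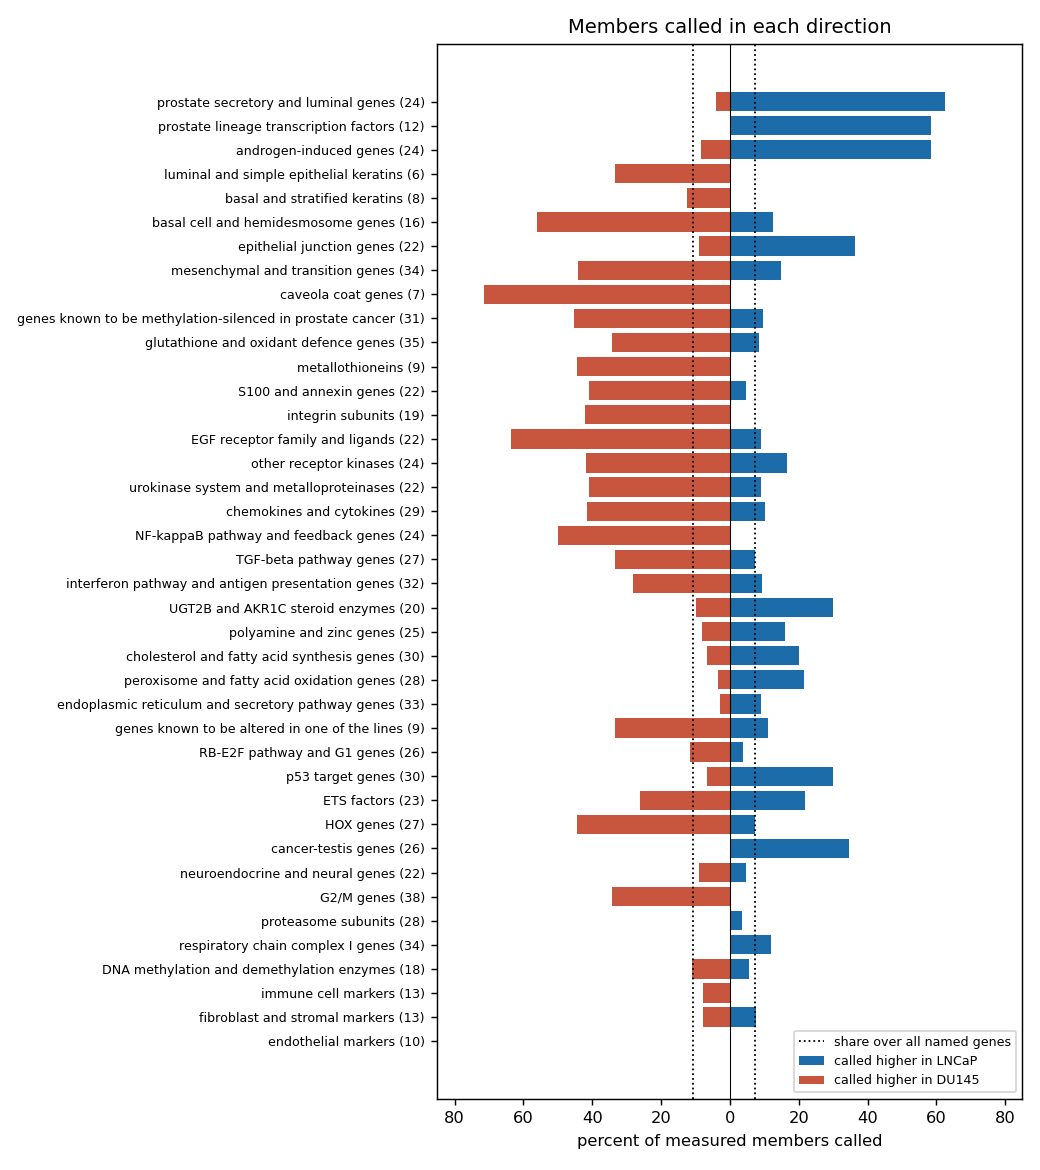
Share of measured members called higher in LNCaP (blue, right) and higher in DU145 (red, left) for 40 gene lists, with the number of members measured in brackets; dotted lines mark the shares over all genes, 7.34% and 10.6%. The secretory list reaches 62.5% to the right and the caveola list 71.4% to the left.

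Keratins did not divide the lines into luminal and basal. KRT18, a keratin of simple epithelium, was high in both, 11.61, 11.72, 11.44 and 11.58 in LNCaP and 12.06, 12.05, 11.87 and 11.55 in DU145, and was not called (-0.30, SE 0.10, limma adjusted p = 0.0226). KRT7, a keratin of simple ducts, read 6.35, 6.34, 5.98 and 5.88 in LNCaP and 11.57 to 11.85 in DU145, a difference of -5.60 (SE 0.08, limma adjusted p = 8.86e-10). KRT19, found in simple and ductal epithelium, differed by -3.71. These were the 2 calls among 6 luminal and simple keratins. Among 8 basal and stratified keratins, 1 was called, KRT80 (-3.03). KRT5, the classical basal keratin, was low in both lines (means 5.99 and 5.65).

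Basal cell and hemidesmosome genes were mostly higher in DU145, 9 of 16 called against 2 higher in LNCaP, with a median of -1.74. The widest differences in this list were those of ANXA2 (-7.21) and ANXA1 (-6.49), which are also in the annexin list below. CD44, the hyaluronan receptor, read 5.55, 5.53, 5.49 and 5.60 in LNCaP and 10.71 to 10.95 in DU145, a difference of -5.30 (SE 0.07, limma adjusted p = 8.86e-10). DST, which links hemidesmosomes to keratin, differed by -4.98, LAMB3, a laminin chain, by -4.34 and ITGB4, the hemidesmosome integrin, by -2.42. The genes called the other way were JAG1, a Notch ligand (2.55), and TRIM29 (1.01), and both are named with their values seen. TRIM29 fell under the bound without the miR-29b pair (0.98) or the siTET2 pair (0.92).

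Epithelial junction genes stood more often the other way, with 8 of 22 called higher in LNCaP and 2 in DU145, and a median of 0.54. RAB25, a GTPase of epithelial recycling, read 10.81, 10.65, 10.65 and 11.002 in LNCaP and 4.61 to 4.86 in DU145, a difference of 6.08 (SE 0.07, limma adjusted p = 5.27e-10). ST14, the protease matriptase, differed by 2.34 and MARVELD2, a tricellular junction protein, by 1.97. CDH1, the epithelial cadherin, differed by 1.87, yet with means of 11.9 and 10.0 it was high in both lines; it is named with its value seen. The 2 calls in DU145 were large. CLDN1, a tight junction claudin, read 4.85, 5.06, 4.69 and 5.07 in LNCaP and 12.04 to 12.31 in DU145, a difference of -7.26 (SE 0.12, limma adjusted p = 1.50e-09), and CDH3, the placental cadherin, differed by -4.74.

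Of 34 mesenchymal and transition genes, 15 were called higher in DU145 and 5 in LNCaP, with a median of -0.46. NT5E, the ectonucleotidase CD73, differed by -6.13, and TNC, the matrix protein tenascin C, by -4.63. GNG11, a G protein subunit, also differed by -4.63. ZEB1, a repressor of epithelial genes, differed by -4.54, with a mean of 4.35 in LNCaP and 8.89 in DU145, and is named with its value seen. The 5 genes higher in LNCaP included FN1, the matrix protein fibronectin. FN1 read 11.997, 11.71, 11.98 and 11.91 in LNCaP and 7.83, 7.53, 7.87 and 7.60 in DU145, a difference of 4.19 (SE 0.07, limma adjusted p = 1.70e-09). The others were CALD1, an actin-binding caldesmon (2.80), TWIST1 (1.21) and SNAI2 (1.19), which are transcription factors of the transition, and ACTA2, smooth muscle actin (1.13). All of these but ACTA2 are named with their values seen. SNAI2 read 9.96 in LNCaP with siTET2 against 8.35 to 8.59 on the other LNCaP arrays, and without the siTET2 pair its difference was 0.98. ACTA2 stood at 0.96 without the miR-29b pair, and TWIST1 at 0.99 on within-array ranks. With the control constructs only, 3 members were called higher in LNCaP. The median was -0.09 on the deposited values. ACTA2 and FBLN1, a matrix fibulin (-2.27), were also the 2 called of 13 fibroblast and stromal markers, while the fibroblast markers LUM and POSTN lay no higher than percentile 2.5 of any array.

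Most caveola genes were higher in DU145. Of 7 coat genes, 5 were called higher in DU145 and 0 in LNCaP. CAVIN1, which builds the coat with caveolin, read 6.16, 5.72, 5.99 and 6.02 in LNCaP and 10.06 to 10.35 in DU145, a difference of -4.23 (SE 0.08, limma adjusted p = 3.00e-09). CAVIN2 differed by -2.66 and CAVIN3 by -1.51, and EHD2, an ATPase at the caveola neck, by -2.62. The median of -2.62 was the most negative of the 40 lists.

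Calcium-binding membrane proteins followed. Of 22 S100 and annexin genes, 9 were called higher in DU145 and 1, S100P (1.85, named with its value seen), in LNCaP. ANXA3 read 4.13, 4.21, 4.11 and 4.06 in LNCaP and 11.80 to 11.88 in DU145, a difference of -7.71 (SE 0.07, limma adjusted p = 4.71e-10). ANXA2 differed by -7.21 and S100A10, the subunit with which it forms a complex at the membrane, by -6.26. ANXA1 differed by -6.49 and S100A16 by -6.19. ANXA2P2, a near-identical processed copy of ANXA2, gave -6.95, and probes may not tell the copies apart.

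Integrins, the receptors for matrix, were called higher in DU145 in 8 of 19 and in LNCaP in 0, and the latter count was 3 on the deposited values. The median was -0.80, and 0.004 on the deposited values. ITGA3, which binds laminin, read 7.15, 6.84, 6.65 and 6.84 in LNCaP and 11.62 to 11.93 in DU145, a difference of -4.92 (SE 0.09, limma adjusted p = 1.86e-09). ITGB3, of the vitronectin receptor, differed by -3.12, ITGA2, of the collagen receptor, by -3.09 and ITGA5, of the fibronectin receptor, by -2.07. FN1, the ligand of the last, was the one higher in LNCaP, as given above.

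Of 22 genes of the urokinase system and the metalloproteinases, 9 were called higher in DU145 and 2 in LNCaP. PLAU, urokinase, read 6.14 to 6.24 in LNCaP and 12.28, 12.17, 12.23 and 12.57 in DU145, a difference of -6.12 (SE 0.08, limma adjusted p = 6.57e-10). MMP1, interstitial collagenase, differed by -5.41 (SE 0.27) and TIMP1, an inhibitor of metalloproteinases, by -4.74. Proteases differed in both directions. MMP16, a membrane-bound metalloproteinase, read 10.07, 9.59, 9.96 and 9.86 in LNCaP and 4.21 to 4.57 in DU145, a difference of 5.50 (SE 0.09, limma adjusted p = 1.19e-09), and MMP7, matrilysin, differed by 4.34.

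EGF receptor genes, ligands and feedback inhibitors had the second largest share of calls higher in DU145, 14 of 22, against 2 higher in LNCaP, and a median of -1.33. Among the ligands, EREG, epiregulin, read 5.94, 5.81, 5.50 and 5.73 in LNCaP and 11.39, 11.43, 11.64 and 11.04 in DU145, a difference of -5.63 (SE 0.13, limma adjusted p = 7.00e-09). TGFA, a further ligand, differed by -3.56. Among the receptors, EGFR differed by -1.75 and ERBB3 by 1.51, and both are named with their values seen. Of the feedback inhibitors of the pathway, SPRY2 stood at -3.59, the phosphatase DUSP6 at -2.79 and SPRED1 at -2.48. EGF itself was called higher in LNCaP (1.44), and is named with its value seen.

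Of 24 other receptor tyrosine kinases, 10 were called higher in DU145 and 4 in LNCaP. MET, the receptor of hepatocyte growth factor, read 5.40, 5.64, 5.42 and 5.14 in LNCaP and 10.93 to 11.22 in DU145, a difference of -5.63 (SE 0.10, limma adjusted p = 1.76e-09). AXL, the receptor of GAS6, read 6.32, 6.13, 5.61 and 6.21 in LNCaP and 11.53 to 12.01 in DU145, a difference of -5.74 (SE 0.13, limma adjusted p = 7.24e-09). The ephrin receptors divided, with EPHA2 at -3.26 and EPHA3 and EPHA7 at 3.42 and 2.87.

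ETS factors also divided, 5 of 23 called higher in LNCaP and 6 in DU145. ETV1, which is known to be rearranged in LNCaP, read 10.68, 10.90, 10.99 and 10.88 there and 4.07 to 4.19 in DU145, a difference of 6.72 (SE 0.08, limma adjusted p = 5.49e-10). ETV5, of the same subfamily as ETV1, read 4.87 to 5.02 in LNCaP and 9.82 to 10.09 in DU145, a difference of -4.97 (SE 0.09, limma adjusted p = 1.77e-09). ETS1, which drives genes of invasion and vessel growth, differed by -4.32. ETV1 and ETV5 were thus low in opposite lines.

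Of 29 chemokines and cytokines, 12 were called higher in DU145 and 3 in LNCaP. The median was -0.17, and 0.22 on the deposited values. IL18, a cytokine matured by the inflammasome, read 3.17 to 3.45 in LNCaP and 9.99, 9.81, 9.86 and 9.93 in DU145, a difference of -6.54 (SE 0.08, limma adjusted p = 5.27e-10). IL24 differed by -5.43 and CXCL2, which attracts neutrophils, by -5.02. CXCL10, which attracts T cells and is induced by interferon, stood the other way. It read 7.68, 8.96, 7.203 and 8.06 in LNCaP and 4.01, 3.67, 4.17 and 4.83 in DU145, a difference of 3.81 (SE 0.32, limma adjusted p = 1.44e-05), and its spread over constructs was wide.

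NF-kappaB is a family of factors that turns on inflammatory genes and its own inhibitors. Of 24 pathway and feedback genes, 12 were called higher in DU145 and 0 in LNCaP, with a median of -0.98; 1 was called higher in LNCaP without the miR-29b or the siControl pair. On the deposited values 5 were called higher in DU145 and 1 in LNCaP. ICAM1, an adhesion molecule for leukocytes, read 5.85 to 6.17 in LNCaP and 11.58 to 11.80 in DU145, a difference of -5.71 (SE 0.10, limma adjusted p = 1.57e-09). TNFAIP2 differed by -3.60 and TNFAIP3, the inhibitor A20, by -2.73. REL, a subunit, differed by -1.89 and BCL3, a co-regulator, by -1.74.

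Of 27 TGF-beta pathway genes, 9 were called higher in DU145 and 2 in LNCaP, and 16 were not called. The median was -0.60, and -0.21 on the deposited values. The ligand TGFB2 differed by -4.80, the ligand TGFB1 by -4.25 and SMAD3, which carries the signal to the nucleus, by -3.28. TGFBR2, the receptor that binds the ligand, read 5.64 to 5.78 in LNCaP and 10.61, 10.62, 10.64 and 11.43 in DU145, a difference of -5.09 (SE 0.15, limma adjusted p = 2.22e-08). BMPR1B, a receptor of the bone morphogenetic branch, was higher in LNCaP by 3.32.

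Interferon and antigen presentation genes had 9 of 32 called higher in DU145 and 3 in LNCaP, but 4 and 7 on the deposited values, so the balance of this list depends on the scaling. JAK1, a kinase of interferon receptors known to be missing in LNCaP, read 6.90, 6.98, 7.15 and 7.13 there and 10.65, 10.67, 10.66 and 11.01 in DU145, a difference of -3.71 (SE 0.08, limma adjusted p = 5.56e-09). IFNAR2, an interferon receptor chain, differed by -1.82. IFITM3, an antiviral membrane protein, read 9.54, 9.78, 9.55 and 9.82 in LNCaP and 7.14, 6.55, 7.29 and 7.71 in DU145, a difference of 2.50 (SE 0.17, limma adjusted p = 3.59e-06). The kinase was thus lower in LNCaP and IFITM3 higher, with no overlap between lines in either.

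Genes of glutathione and oxidant defence were called higher in DU145 in 12 of 35 and in LNCaP in 3. GSTM1, a glutathione transferase, read 6.13, 5.34, 5.50 and 5.29 in LNCaP and 11.02, 10.67, 10.46 and 10.56 in DU145, a difference of -5.11 (SE 0.09, limma adjusted p = 2.47e-09). GSTM4 differed by -3.39, though GSTM genes are close copies and probes may read more than 1. GPX3, a secreted glutathione peroxidase, differed by -3.71. MGST2, a microsomal transferase, was higher in LNCaP by 3.09. Metallothioneins, which bind zinc and copper, were called higher in DU145 in 4 of 9 and in LNCaP in 0. MT1E read 7.10 to 7.18 in LNCaP and 12.44 to 12.57 in DU145, a difference of -5.38 (SE 0.07, limma adjusted p = 5.82e-10), and MT1M differed by -4.28. MT2A was high in both lines (12.9 and 13.8) and was not called (-0.90). The metallothioneins share sequence as well, so their single values are uncertain.

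Of 31 genes known to be silenced by methylation in prostate cancer, 14 were called higher in DU145 and 3 in LNCaP, or 13 and 7 on the deposited values. Their median was -0.09, and 0.46 on the deposited values, so its sign depends on the scaling. Besides GSTP1, CAV1, CD44 and GPX3, the widest difference was that of SFRP1, a WNT antagonist (-3.44). CDKN2A, which encodes the inhibitor p16 and is also in this list, differed by -2.25. RARB, the retinoic acid receptor that is a classical methylated gene, was higher in LNCaP by 2.06 and is named with its value seen. In 26 windows of 300 bases of this list the median count of CG was 26.5. Most enzymes that add or remove DNA methylation were not called. Of 18 measured, 1 was called higher in LNCaP, IDH1 (1.17), which makes the cofactor of the TET enzymes, and 2 were called higher in DU145, TET1 (-1.65) and GADD45B (-1.69). On the deposited values 4 were called higher in LNCaP, TET2 among them (1.13), and after median centring IDH1 was not called (0.82).

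TET2 read 9.16, 8.45, 8.84 and 7.70 in LNCaP and 8.11, 7.96, 8.02 and 6.86 in DU145. It was lowest with siTET2 in both lines, and the line difference of 0.80 (SE 0.10, limma adjusted p = 0.000134) was below the 2-fold bound. TET1, a related dioxygenase, read 5.68, 5.57, 5.85 and 5.98 in LNCaP and 7.40, 7.33, 7.10 and 7.85 in DU145 (SE 0.11, limma adjusted p = 2.96e-06). TET3 differed by 0.46. Of the methyltransferases, DNMT1 differed by -0.49, DNMT3A by -0.20, DNMT3B by 0.08 and DNMT3L by -0.15, and none was called. The hemimethylation reader UHRF1 gave -0.89 on 1 probe set and 0.20 on another, and UHRF2 -0.29. TDG, which excises oxidised bases, differed by 0.97 and IDH2 by 0.91, and GADD45A by -0.71. The binding proteins MBD1 (0.31), MBD2 (0.04), MBD3 (0.37) and MBD4 (0.10) were not called. DNMT3A and DNMT3L turned positive on the deposited values (0.15 and 0.58), and MBD2 and MBD4 negative after median centring (-0.32 and -0.19).

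Mitotic genes were more often higher in DU145. Of 38 G2/M genes, 13 were called higher in DU145 and 0 in LNCaP, and 33 of 38 were below 0, with a median of -0.74. All 38 lay above the median of every array. MKI67, the proliferation antigen, read 10.05, 10.25, 10.17 and 9.43 in LNCaP and 11.28 to 11.43 in DU145, a difference of -1.39 (SE 0.12, limma adjusted p = 1.64e-05). ASPM, a spindle pole protein, differed by -1.82, TOP2A, topoisomerase II, by -1.81 and KIF23, a cytokinesis kinesin, by -1.79. No proliferation rate was measured. The count of calls was 7 on the deposited values and 21 after median centring.

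Of 30 targets of p53, 9 were called higher in LNCaP and 2 in DU145, with a median of 0.41. The counts for LNCaP were 12 on the deposited values and 4 after median centring. GDF15, a stress cytokine, read 12.60, 12.82, 12.37 and 12.56 in LNCaP and 6.36, 6.18, 6.58 and 7.12 in DU145, a difference of 6.03 (SE 0.17, limma adjusted p = 2.38e-08). TP53INP1, an inducer of cell death, differed by 4.16, SPATA18, of mitochondrial quality control, by 3.13 and SESN1, a sestrin, by 2.70. CDKN1A, the inhibitor p21, differed by 1.03, and by 0.98 without the siTET2 pair. The 2 calls in DU145 were SLC12A4, a potassium chloride cotransporter (-1.74), and TP53I3, a quinone reductase (-1.17), the latter named with its value seen and below 2-fold on the deposited values (-0.77). GDF15 was among the highest genes of LNCaP and no higher than 7.12 on any DU145 array.

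Among 26 genes of the RB-E2F pathway and G1, 1 was called higher in LNCaP and 3 in DU145. CDKN2A read 8.53, 8.55, 8.35 and 8.30 in LNCaP and 10.64 to 10.75 in DU145, a difference of -2.25 (SE 0.08, limma adjusted p = 9.06e-08). CDK6, a G1 kinase, differed by -2.71. RB1, which is known to be mutated in DU145, had nearly equal transcript levels, 9.83, 10.01, 10.09 and 9.80 in LNCaP and 10.10, 10.15, 10.37 and 10.25 in DU145 (-0.29, SE 0.08, limma adjusted p = 0.0103). Of 9 measured genes known to be altered in one of the lines, ETV1 was called higher in LNCaP and JAK1, CDKN2A and MSH6, of mismatch repair (-1.08, and -0.87 on the deposited values), higher in DU145. ATG5, of autophagy (0.94), the kinase STK11 (0.62), CDKN2B (-0.64) and RBL1 (-0.45) were not called. A transcript level on an array does not show whether the protein is made.

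Most members of the metabolic lists were not called. Among 30 genes of cholesterol and fatty acid synthesis, 6 were called higher in LNCaP and 2 in DU145, with a median of 0.31. FASN, fatty acid synthase, read 10.997, 10.83, 10.81 and 10.77 in LNCaP and 9.64, 9.53, 9.07 and 8.60 in DU145, a difference of 1.64 (SE 0.14, limma adjusted p = 1.57e-05). ACACA, which makes malonyl-CoA, differed by 1.63 and the regulator SREBF1 by 1.53. The acyl-CoA synthetases went opposite ways, ACSL1 by 3.15 and ACSL4 by -3.59. Of 28 genes of peroxisomes and fatty acid oxidation, 6 were called higher in LNCaP, among them ACAA1 (1.58), a thiolase, and 1 in DU145, and after median centring these counts were 3 and 2. Of 25 polyamine and zinc genes, 4 were called higher in LNCaP and 2 in DU145, with SLC30A4, a zinc exporter, at 3.23, AMD1, of spermidine synthesis, at 1.85 and SMOX, spermine oxidase, at -2.71.

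The organelle lists held few calls. Of 33 genes of the endoplasmic reticulum and secretion, 3 were called higher in LNCaP, among them CREB3L4, a membrane-bound factor (1.999), and 1 in DU145, KDELR3 (-3.63). Of 34 genes of respiratory complex I, 4 were called higher in LNCaP and 0 in DU145, NDUFB4 by most (2.07), and the count was 7 on the deposited values and 2 after median centring. Of 28 proteasome subunits, 1 was called, PSMD6 (1.04, and 0.98 without the siTET2 pair).

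Germ line genes came next. Of 26 cancer-testis genes, 9 were called higher in LNCaP and 0 in DU145, with a median of 0.35. CSAG1 read 8.32, 8.23, 8.08 and 8.32 in LNCaP and 5.31, 4.999, 4.79 and 5.23 in DU145, a difference of 3.16 (SE 0.08, limma adjusted p = 9.90e-09), and PAGE1 differed by 2.997. MAGEA10, of the MAGE family of ubiquitin ligase partners, differed by 2.52. Of 22 neuroendocrine and neural genes, 1 was called higher in LNCaP, DDC, a decarboxylase of amine synthesis (2.0003). UCHL1, a ubiquitin hydrolase of neurons, read 6.03 to 6.08 in LNCaP and 12.18 to 12.24 in DU145, a difference of -6.15 (SE 0.07, limma adjusted p = 4.71e-10), and ENO2, neuronal enolase, differed by -1.27. On the deposited values 4 genes of this list were called higher in LNCaP.

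Homeobox genes of the HOX clusters, which set position along the body, were called higher in DU145 in 12 of 27 and in LNCaP in 2, and the former count was 7 on the deposited values. The direction changed within cluster B. HOXB13, at its posterior end, was higher in LNCaP by 5.002. HOXB9 read 7.38, 6.82, 7.26 and 7.14 in LNCaP and 10.56, 10.45, 10.55 and 10.11 in DU145, a difference of -3.27 (SE 0.11, limma adjusted p = 4.98e-08). HOXB7 differed by -3.04, HOXB5 by -3.05, HOXB6 by -2.17 and HOXB2 by -2.88. HOXB4 (-1.34) and HOXB8 (-1.20) were called here, but differed by less than 2-fold on the deposited values (-0.81 and -0.70).

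Some called genes lay side by side. With 16903 protein-coding genes in RefSeq order, 34 runs of at least 4 neighbours were called in 1 direction, 12 higher in LNCaP and 22 higher in DU145, with 163 genes in all, or 5.23% of the 3115 called genes placed in that order. The runs were found from the values, so they are a description, and their genes are named with values seen. One holds KLK15 (1.41), KLK3, KLK2 and KLK4. One holds STEAP1 (2.26), STEAP2, CFAP69, a cilium gene (3.36), and GTPBP10 (1.13, and 0.79 after median centring), of mitochondrial ribosomes. Higher in DU145 were HOXB4 to HOXB9 and a run of Schlafen genes, which restrict translation and replication in stressed cells. SLFN11 read 3.98 to 4.14 in LNCaP and 9.88, 9.96, 9.72 and 9.59 in DU145, a difference of -5.73 (SE 0.09, limma adjusted p = 1.50e-09), with SLFN13 at -4.56, SLFN12 at -3.66 and SLFN12L at -1.28 (-0.74 on the deposited values). The run from CXCL2 to PARM1 (-2.58) holds the ligand genes EPGN (-1.20), EREG and BTC (-1.66), of which EPGN and BTC differed by less than 2-fold on the deposited values (-0.49 and -0.94). The longest run, of 12 genes, held the protocadherins from PCDHA1 (-1.34, and -0.87 on the deposited values) to PCDHA13 (-1.27 and -0.88), whose transcripts share their last exons, so their values are not independent of each other.

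**Figure D4:**
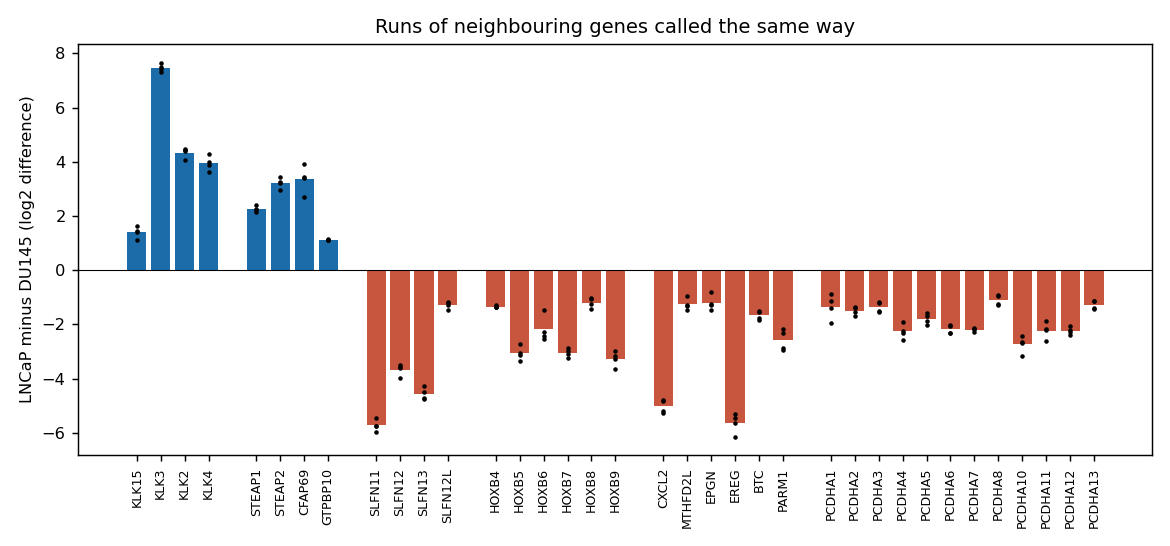
Log2 difference, LNCaP minus DU145, of the genes of 6 runs of neighbours called the same way, in RefSeq order within a run; bars are the fitted differences and points the 4 matched differences. The kallikrein and STEAP runs lie above 0 and the SLFN, HOXB, CXCL2 to PARM1 and PCDHA runs below it.

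The line difference was much the same with every construct for most genes. Among 9209 genes of median level or above, the median range of the 4 matched differences was 0.30, its 95th percentile 0.71 and its highest value 3.44. Each construct had 1 array in each line, so the following ranges have no test. CXCL8, the chemokine interleukin 8, had the widest range, with matched differences of -2.87, -1.64, -4.63 and -5.09. It read 7.35, 8.82, 6.72 and 6.77 in LNCaP and 10.22, 10.46, 11.35 and 11.86 in DU145, so that it was higher in DU145 with every construct and the gap was narrowest with miR-29b. IFIT1, an antiviral RNA-binding protein, had differences of -0.46, 1.85, -1.40 and -0.96. It was higher in LNCaP with miR-29b and lower with the other 3 constructs, and its difference did not pass (limma adjusted p = 0.65).

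OASL, an antiviral protein related to oligoadenylate synthetase, had differences of 1.05, 2.21, -0.44 and 0.16, and IFI6, a mitochondrial interferon-induced protein, -0.28, 1.16, -0.51 and -0.25. CCL20, a chemokine, had -0.05, 1.30, -0.66 and -1.08. In each of these and in IFIT1 and CXCL8, the matched difference was highest with miR-29b, and the LNCaP array with miR-29b was the highest of its line. The DU145 array with miR-29b was the lowest of its line for IFIT1 (7.24), IFI6 (8.79) and CCL20 (8.75). For OASL and CXCL8 the lowest DU145 array was that with nc. Both lines thus entered the range of IFIT1, IFI6 and CCL20. TXNIP, the thioredoxin-interacting protein, had differences of 2.57, 3.26, 2.05 and 1.08. The DU145 array with siTET2 was the highest of its line for TXNIP (10.97, against 8.71 to 9.61), for SESN2, a stress-induced sestrin (8.86, against 7.42 to 7.73), and for CHAC1, which degrades glutathione (9.50, against 8.54 to 8.62). KLK3 and CAV1 by contrast kept their differences within 7.30 to 7.66 and -7.73 to -7.16.

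**Figure D5:**
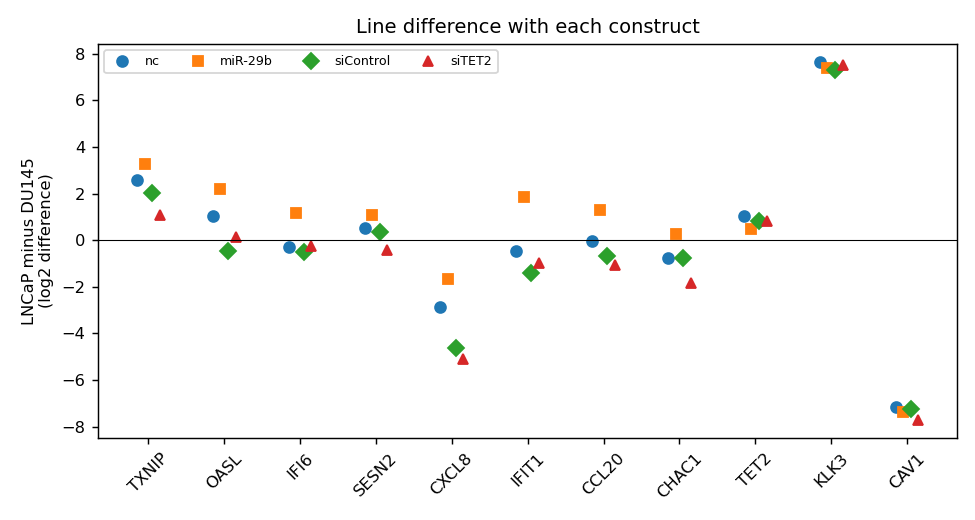
Log2 difference, LNCaP minus DU145, with each of the 4 constructs for 8 genes (among those of median level or above, the 4 with the widest ranges in each direction of the mean difference) and for TET2, KLK3 and CAV1; each symbol is the difference of 2 arrays. The points of CXCL8 run from -5.09 to -1.64 and those of IFIT1 from -1.40 to 1.85, while those of KLK3 and CAV1 lie close together.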

How the data were processed

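Levels came from the deposited table of log2 values for 33297 probe sets and 8 arrays, which per the submitters' processing notes the authors made with Affymetrix Expression Console and RMA. RMA corrects background, normalizes and summarises probes. Which arrays were normalized together is not given in the sources used here, and the quantiles of 2 arrays differed by 0.01 to 0.06 on average within a line and 0.46 to 0.50 between lines. The table states no log base. It was read as log2, and no detection calls were used.

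All 8 arrays were quantile normalized together with limma 3.58.1 (R 4.3.3). The platform's annotation paired 19460 probe sets with a single symbol. The 1754 with several symbols and the 12083 with none were left unnamed. This gave 18417 genes, the probe set of highest mean standing for each of the 769 with several. No filter on low values was set. limma (lmFit, eBayes) was fitted with construct and line as terms and 3 residual degrees of freedom, with Benjamini-Hochberg adjustment over all genes. A range in the text runs from the lowest to the highest array of a line. The number of arrays limits the precision.

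Members and lists were chosen with earlier results of these data known. Named genes are the 6 markers, the 15 leading called genes in each direction, the 5 list members that differed most in either direction, the full lists of steroid enzymes, methylation enzymes and altered genes, and the 4 genes in each direction with the widest construct range. Any other name was chosen with its values seen. Lists were described by counts and medians and not tested. Some well-known genes of these lines were not analysed here. Promoter windows came from RefSeq (14237 genes matched).

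Tested on simulated data for LNCaP minus DU145 over 18417 genes, the call recovered 93% of 100 genes set apart by 1.5 log2 units with 0 false calls. Adjusted p alone recovered 44% of 100 set apart by 0.5, which lie under the fold bound, with 2 false calls. The simulated noise was independent between arrays, with no construct effect and no normalization step. These counts of false calls therefore do not cover errors that come from the scaling. Alternatives were the deposited values, within-array ranks, median centring, no construct term, a floor on level, the mean of probe sets, an intensity trend, the control constructs only and leaving out each construct's pair.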

Additional observations from a re-analysis of the deposited data

Results flagged for a closer look

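With 4 arrays in a line, a gene was picked out where its highest or lowest array stood apart from the other 3 by most of the line's range (past Dixon's 95% bound). Over 238 genes and both lines, or 476 groups, 26 cases were picked out, each of them 1 gene on 1 array. Chance alone picks out about 1 in 20 groups, here 23.8, so the count is near what chance gives. Their parts in the line differences were not tested beyond leaving out each construct's pair.

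In DU145 with siTET2, the target TET2 was low at 6.86, CHAC1 high at 9.50, ETS1 high at 10.72, TGFBR2 high at 11.43, JAK1 high at 11.01, EPHA3 low at 4.46 and ACSL1 low at 7.64. In LNCaP with siTET2, SNAI2 was high at 9.96, TGFB2 high at 5.75, UHRF2 high at 9.54, MBD1 high at 8.95, GUCY1A1 high at 11.05 and ACSL1 low at 10.62. Of the 26 arrays, 13 were siTET2 arrays. In LNCaP with miR-29b, IFIT1 was high at 9.09. In DU145 with miR-29b, EPGN stood apart at 4.69, MIR99AHG at 4.05 and MT2A at 13.77. With siControl, GSTP1 was low in LNCaP at 6.24, HOXB8 at 6.20 and SLFN12 at 4.09, and AMD1 stood apart at 12.38. With nc, AKR1C1 read 7.31, SFRP1 5.71, SULT1E1 3.55 and TSPAN1 9.285 in LNCaP, and KRT5 read 5.49 in DU145.

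Of the 8 genes picked for their wide range over constructs, the line difference of 6 changed sign with the construct. Matched differences of both signs were seen in 4863 of all 18417 genes, so a change of sign is common. The change in these 6 was not tested, since a construct had 1 array in each line. OASL ran from -0.44 (siControl) to 2.21 (miR-29b) and IFI6 from -0.51 (siControl) to 1.16 (miR-29b). IFIT1 ran from -1.40 (siControl) to 1.85 (miR-29b). SESN2 ran from -0.43 (siTET2) to 1.10 (miR-29b), CCL20 from -1.08 (siTET2) to 1.30 (miR-29b) and CHAC1 from -1.82 (siTET2) to 0.26 (miR-29b).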

How the results depend on the processing

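Quantile normalization makes the 8 arrays alike in distribution, so the balance of calls between lines is set partly by it. On the deposited values 3776 genes were called higher in LNCaP and 1313 in DU145. A floor that kept only the 9209 genes of median level or above tested fewer genes and called 789 and 1002. Within-array ranks gave 1207 and 1792, median centring 1209 and 2428, the control constructs only 1344 and 2021, and leaving out each construct's pair 1339 to 1383 and 1942 to 2025. The 6 markers kept direction and call in every setting. No gene called here was called the other way by any alternative listed under the processing. On the deposited values, 4 of 40 lists turned their balance of calls (interferon, neuroendocrine, DNA methylation enzymes, immune markers), and the median of 8 changed sign. The fit is paired by construct, and without the construct term the same 1352 and 1948 genes were called. Low signals hold a background floor, which limits differences at genes low in 1 line.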

Other observations

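Histone H4 genes gave values that point opposite ways. Of 13 measured, H4C5 read 11.77, 11.77, 11.67 and 11.69 in LNCaP and 4.84 to 5.13 in DU145 (6.71), while H4C13 read 4.16 to 4.38 in LNCaP and 10.72, 10.69, 10.46 and 9.90 in DU145 (-6.14). The other 11 lay between -0.83 and 1.43. These genes were chosen after their values were seen.

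Probe sets of some genes with large differences gave unlike values. TARP, a transcript of the T cell receptor gamma locus that is known in prostate cells, read 10.08, 9.81, 10.42 and 11.46 in LNCaP and 3.51 to 4.08 in DU145 (6.68). Of its other probe sets, 1 gave -0.08. Another gave exactly the same difference (6.6841), so it may be a duplicate entry and not a separate measurement. RNVU1-19, a small nuclear RNA, differed by 6.31 on 1 probe set and by -0.09 on another. The cause was not tested.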
